A study of Mus musculus with 312 samples.

Results

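The cells compared here are single basal cells of the adult mouse mammary gland whose titles come in 2 forms. In 112 cells the title carries the mark (2) and a number from 1 to 112, and in 125 cells it lacks the mark and has a number from 113 to 237. What the mark stands for is not given in the labels, and the 2 sets are called marked and unmarked cells from here on. Cells were kept when they held at least 50000 assigned reads and at least 1000 detected genes, after mitochondrial genes, the Rpl and Rps ribosomal protein genes and gene IDs without a symbol had been left out. This kept 139 of 237 adult cells, 81 marked and 58 unmarked, out of 312 cells in the whole series. Cells from pregnant mice were not used.

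All other labels are shared by the 2 sets: FVB/NJ mice, adult, untreated, mammary gland, cell source basal. The methods name female mice and no transgene. Basal cells were sorted as CD29-high and CD24-positive, after cells with the endothelial marker CD31 or the blood cell markers CD45 and TER-119 had been gated away. Cells were caught in separate chambers of a Fluidigm C1 chip and inspected under the microscope, and their polyadenylated RNA was copied to cDNA, amplified and sequenced. Several mice were used per sort, and the labels tie no cell to an animal, sort or chip. Each set therefore stood as 1 sample, no difference had a replicate check, and no test could be made. The title mark, the animals, the chip and the library preparation cannot be told apart. Every difference below describes these 2 collections of cells, and the intervals given are 95% intervals that cover the counting of cells within a set only. They cover no difference between animals, chips or libraries. Reads without molecular identifiers are not independent molecules.

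Basal cells form the outer layer of the mammary epithelium and rest on the basement membrane. Most of them are myoepithelial, that is, epithelial cells that make keratins 5 and 14 together with smooth muscle actin and myosin, and that contract in response to oxytocin to expel milk. The layer also contains cells that regenerate the gland on transplantation, and it deposits laminins and collagens of the basement membrane.

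Marked cells were kept more often. The filters passed 81 of 112 of them (72.3%, with an exact binomial interval from 63.1 to 80.4%), whereas 58 of 125 unmarked cells passed (46.4%, from 37.4 to 55.5%). The retained unmarked cells held fewer reads. Their median was 101320 assigned reads (range 51464 to 396271), against 174910 (range 59012 to 397317) in marked cells. When every cell was thinned to 50000 reads, the median number of genes was 2189.5 in unmarked cells (interval 1925 to 2475) and 2331 in marked cells (interval 2071 to 2575), and the 2 intervals overlapped. Mitochondrial genes, which encode subunits of the respiratory chain and the mitochondrial ribosomal RNAs, took a median of 15.6% of all reads in unmarked cells (interval 13.3 to 19.1%) and 9.65% in marked cells (interval 7.64 to 11.4%). The highest mitochondrial share was 79.5% in unmarked cell 120 and 52.7% among marked cells. No 2 adult cells held identical counts.

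**Figure D1:**
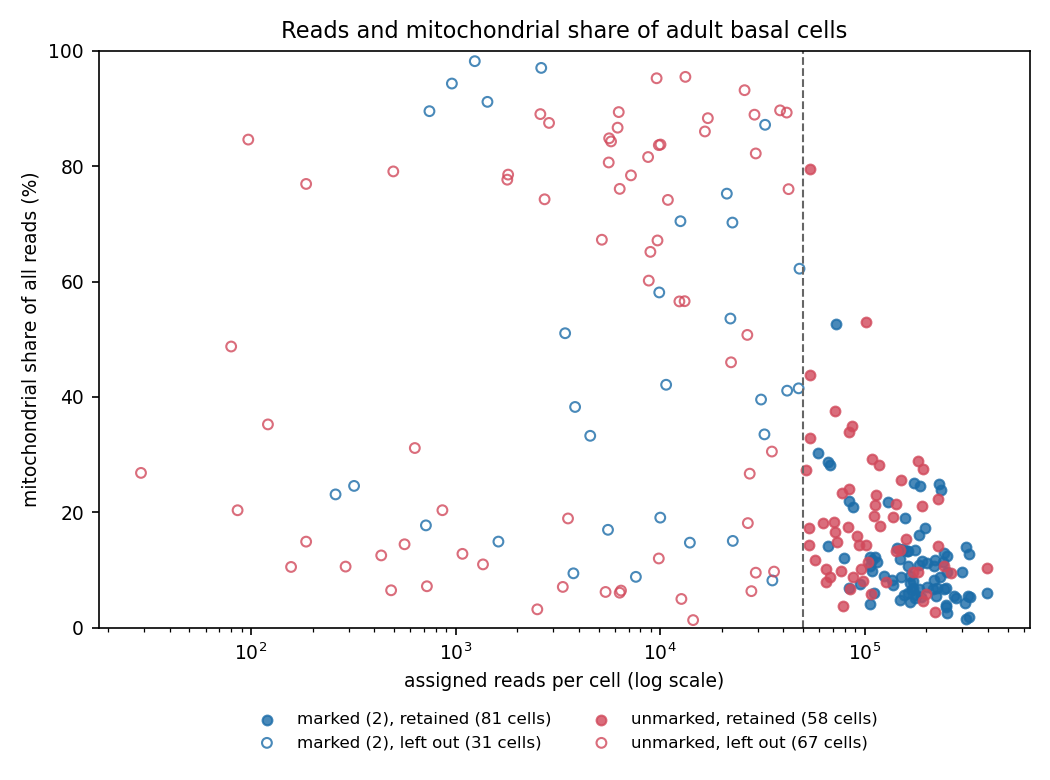
Each point is an adult cell, with its assigned reads on a log axis against its mitochondrial share of all reads in percent. Filled points are retained cells (81 marked in blue, 58 unmarked in red), open points the 31 marked and 67 unmarked cells left out, and the dashed line stands at 50000 reads. Retained unmarked cells lie lower in reads (median 101320 against 174910) and higher in mitochondrial share (median 15.6% against 9.65%), and the 2 clouds overlap.

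The basal label was checked against 11 core basal genes, which include Krt5, Krt14 and Krt17, the smooth muscle genes Acta2, Tagln, Myh11, Mylk, Myl9 and Cnn1, the basal transcription factor Trp63 and the chemokine Cxcl14. With a gene counted at 100 CPM or more (counts per 1000000 counts over the genes kept), the median cell held 10 of them in the marked set and 9 in the unmarked set. At this level 76 marked cells (93.8%, interval 86.2 to 98.0%) and 51 unmarked cells (87.9%, interval 76.7 to 95.0%) reached at least 6 of the 11. At 500 CPM or more the numbers were 71 cells (87.7%, interval 78.5 to 93.9%) and 39 cells (67.2%, interval 53.7 to 79.0%). The cells below 6 at the lower level were marked cells 7, 19, 95, 100 and 104 and unmarked cells 120, 126, 130, 154, 156, 157 and 169. All 7 of these unmarked cells were numbered 175 or lower.

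Keratin 5 (Krt5, Entrez 110308, GRCm38 chr15:101707069-101712905) had a mean of 649.6 CPM in marked and 449 CPM in unmarked cells. Its lowest, median and highest values were 0, 310.1 and 4370.3 CPM in marked cells and 0, 137 and 3552 CPM in unmarked cells, so the ranges overlapped almost entirely. Krt5 was detected in 75 marked cells (92.6%, interval 84.6 to 97.2%) and 48 unmarked cells (82.8%, interval 70.6 to 91.4%) at the thinned depth. The log2 ratio of the means, always given here as unmarked over marked with 10 CPM added to each mean, was -0.52.

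Keratin 14 (Krt14, Entrez 16664, chr11:100203162-100207510), the usual partner of keratin 5 in basal filaments, ranged from 12.3 through a median of 4308 to 25262 CPM in marked cells. In unmarked cells it ranged from 9.08 through 3325 to 10943 CPM, and the log2 ratio of means was -0.51. Smooth muscle actin (Acta2, Entrez 11475, chr19:34240336-34255585) was detected in all 81 marked and all 58 unmarked cells. It ranged from 15.4 through 11154 to 45571 CPM in marked cells and from 20.9 through 9095 to 36131 CPM in unmarked cells, with a ratio of -0.46. Of all pairs of 1 unmarked and 1 marked cell, the unmarked cell had the higher Acta2 value in 39.5%, the higher Krt14 value in 38.1% and the higher Krt5 value in 38.5%.

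None of the 11 core basal genes had means 2-fold apart, whereas 18.9% of all 4578 genes compared were higher in unmarked and 16.7% in marked cells by that measure. The median of the log2 ratios was -0.40 over the list and 0.03 over all genes compared. Where cells were averaged as log2(CPM + 10), 4 of the 11 were 2-fold higher in marked cells, with a median of -0.86 against -0.11 over all genes. Of all 4578 genes, 113 were 2-fold higher in marked cells by that average. The myosin heavy chain of smooth muscle, Myh11, averaged 2725 CPM in marked and 1633 CPM in unmarked cells (ratio -0.73), and the kinase that activates its light chain, Mylk, averaged 3488 and 2089 CPM (-0.74). Calponin 1 (Cnn1) went the other way, with 1138 and 1851 CPM (0.70), but 20.8% of its unmarked sum came from cell 174 and the ratio without that cell was 0.39. Trp63, the transcription factor that maintains the basal layer, averaged 91.1 and 83.7 CPM. Summed over the list, the median cell held 41779.5 CPM in the marked set (range 859 to 97415) and 33667 CPM in the unmarked set (range 154 to 100117).

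Among unmarked cells, the means of Krt5 and Acta2 were lower in the cells numbered 113 to 175 than in those numbered 176 to 237. Krt5 averaged 217 CPM in the 38 cells numbered 113 to 175 and 889 CPM in the 20 cells numbered 176 to 237. In marked cells numbered 1 to 56 and 57 to 112 it averaged 697 and 606 CPM. The Krt5 mean of unmarked cells 176 to 237 thus lay above both marked means. Acta2 averaged 8863 and 11890.2 CPM in the 2 runs of unmarked numbers. With unmarked cells 113 to 175 alone, the median log2 ratio of the core basal list was -0.79, and with cells 176 to 237 alone it was -0.04. This division by title number was chosen after the data had been seen.

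A list of 15 contractile genes compared included 6 of the core basal genes. Of the 15, 3 were at least 2-fold higher in marked cells, which is near the 16.7% of all genes in that direction, and none in unmarked cells. The median ratio was -0.36, and with cells averaged as log2(CPM + 10) it was -0.81, with 6 of the 15 higher in marked cells. Of all 4578 genes, 113 were higher in marked cells when averaged in that way. Lmod1, a leiomodin that nucleates actin filaments in smooth muscle, averaged 281 CPM in marked and 96.9 CPM in unmarked cells (ratio -1.44) and was detected in 51 and 22 cells. Its unmarked level was 14.7 CPM in cells 113 to 175 and 253 CPM in cells 176 to 237, so the later numbers lay close to the marked level. Actg2, the enteric smooth muscle actin, averaged 470.0 and 167 CPM (-1.44), and Synpo2, an actin-bundling protein of the Z disc, averaged 208 and 41.5 CPM (-2.08), with detection in 31 and 7 cells. The oxytocin receptor gene Oxtr averaged 888 and 873 CPM.

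Means were compared for 4578 genes that averaged 50 CPM or more in at least 1 of the sets. Of these, 866 (18.9%) were at least 2-fold higher in unmarked and 765 (16.7%) at least 2-fold higher in marked cells. The median log2 ratio was 0.03, and the median size of the ratio was 0.68. With CPM taken over all reads, mitochondrial ones included, the median ratio was -0.11. Many of these differences rested on a single cell. When the highest cell of the higher set was left out, 232 of the 866 and 365 of the 765 were still 2-fold apart. Among the 489 genes detected in at least 75% of the cells of either set, 13 were higher in unmarked and 15 in marked cells (5.73% in all), with a median size of 0.29. Where cells were averaged as log2(CPM + 10), which gives single high cells less weight, 29 genes were higher in unmarked and 113 in marked cells.

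**Figure D2:**
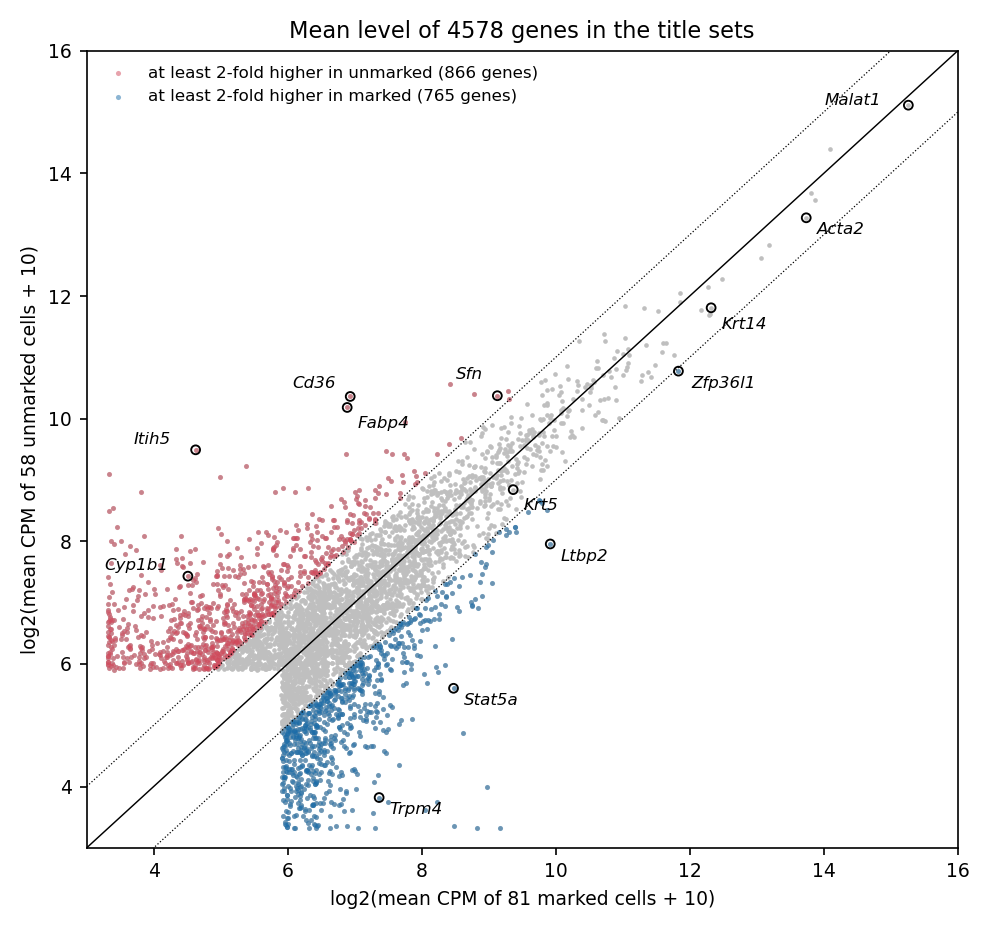
Each point is one of 4578 genes, with the log2 of its mean CPM plus 10 in 81 marked cells against the same in 58 unmarked cells, the line of equal means and dotted lines at 2-fold. The 866 genes higher in unmarked cells (red) and the 765 higher in marked cells (blue) lie mostly at low means, and Malat1, Acta2, Krt14 and Krt5 lie between the dotted lines.

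The most abundant transcripts differed little. The nuclear RNA Malat1 averaged 39301 CPM in marked and 35409.8 CPM in unmarked cells, the metal-binding protein gene Mt1 averaged 17471 and 21612 CPM, cytoskeletal actin (Actb) 14323 and 13085 CPM, and the cell-surface proteoglycan Sdc4 14976 and 12082 CPM. None of these was 2-fold apart, and each spanned more than 10-fold from the lowest to the highest cell within a set.

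Of the widely detected genes, 8 stayed 2-fold apart when the highest cell was left out, 5 higher in marked and 3 higher in unmarked cells. They were singled out after their values had been seen. Ltbp2 (Entrez 16997, chr12:84783212-84876558), a protein of extracellular microfibrils, ranged from 0 through a median of 531 to 10628 CPM in marked cells and from 0 through 29.1 to 1531 CPM in unmarked cells. Its thinned detection was 73 marked cells (90.1%, interval 81.5 to 95.6%) and 34 unmarked cells (58.6%, interval 44.9 to 71.4%). Marked cells 1 to 56 and 57 to 112 averaged 959 and 957 CPM, and unmarked cells 113 to 175 and 176 to 237 averaged 93.6 and 513 CPM. Both unmarked means thus lay below both marked means. In thinned detection the unmarked cells 176 to 237 were not lower, at 4.88 percentage points above the marked set.

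Zfp36l1, an RNA-binding protein that promotes decay of AU-rich messages, had medians of 2937 CPM in marked cells (range 4.09 to 13132) and 1346 CPM in unmarked cells (range 0 to 7349), and a log2 ratio of -1.06. The bromodomain gene Brd2, which reads acetylated histones, averaged 929.5 and 356 CPM (-1.36). Nucleostemin (Gnl3), a nucleolar GTPase, averaged 483 and 181 CPM (-1.37), and the chloride channel accessory gene Clca3a2 averaged 875 and 387 CPM (-1.16). All 4 were lower in unmarked cells, and the ranges of the 2 sets overlapped for each. In all 4, both unmarked runs of title numbers lay below both marked runs. Zfp36l1 averaged 1272 and 2635 CPM in unmarked cells 113 to 175 and 176 to 237 and 3455 and 3801 CPM in the marked runs. For Gnl3 the margin was small, with 147 and 247 CPM in the unmarked runs and 257 and 693 CPM in the marked runs.

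Stratifin (Sfn), the 14-3-3 protein of stratified epithelia, was higher in unmarked cells, with medians of 422 CPM in marked cells (highest 2951) and 1129 CPM in unmarked cells (highest 6749) and a log2 ratio of means of 1.25. Its level was alike across title numbers, at 1235 and 1472 CPM in unmarked cells 113 to 175 and 176 to 237 and 471 and 623 CPM in marked cells 1 to 56 and 57 to 112. Follistatin (Fst), a secreted activin inhibitor, had medians of 32.4 and 253 CPM (1.18), and the bHLH transcription factor Tcf4 had means of 108 and 317 CPM (1.47). In unmarked cells 113 to 175 and 176 to 237, Fst averaged 841 and 602 CPM and Tcf4 397 and 165 CPM. In marked cells 1 to 56 and 57 to 112, Fst averaged 279 and 376 CPM and Tcf4 125 and 92.4 CPM.

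The 15 genes that were farthest above the unmarked level in marked cells, ranked by the smaller of the ratio with all cells and that without the highest cell, among genes detected in at least 25% of marked cells, were Trpm4, Irak4, Supt6, Stk4, Qtrt1, Stat5a, Stk39, Rere, Card10, Numa1, Rbms2, Bscl2, Plk3, Rbm5 and Auts2. Stat5a (Entrez 20850, chr11:100859351-100885169), the transcription factor that relays prolactin signals in the mammary epithelium, ranged from 0 through a median of 28.2 to 3242 CPM in marked cells and from 0 through 4.91 to 735 CPM in unmarked cells. It was detected in 52 marked cells (64.2%, interval 52.8 to 74.6%) and 23 unmarked cells (39.7%, interval 27.1 to 53.4%), and it reached 100 CPM in 36 and 4 cells. The log2 ratio was -2.87, and -2.72 without the highest marked cell. Unmarked cells 113 to 175 and 176 to 237 averaged 40.3 and 35.3 CPM, far below the 427 and 270.0 CPM of marked cells 1 to 56 and 57 to 112.

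Irak4, the kinase below Toll-like and interleukin-1 receptors, averaged 115 CPM in marked and 2.32 CPM in unmarked cells (ratio -3.34), and its highest unmarked cell held 29.5 CPM. Trpm4, a calcium-activated cation channel, averaged 155 and 4.13 CPM (-3.54). Supt6, a histone chaperone that travels with RNA polymerase II, averaged 152 and 8.17 CPM (-3.16), and Qtrt1, which places queuine in transfer RNA, averaged 89.8 and 3.44 CPM (-2.89). In all 4 genes the median cell of either set held no read, so the means were carried by a minority of cells.

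Of the other genes named here, Stk4, Stk39 and Plk3 encode kinases. Stk4, a kinase of the Hippo pathway, was detected in 26 marked and 2 unmarked cells, and Stk39, which regulates cation-chloride cotransporters, in 33 and 12 cells. The stress-responsive kinase Plk3 averaged 261 and 41.5 CPM (-2.40). The nuclear genes Rbm5, a splicing regulator, and Numa1, a spindle protein, were detected in 49 and 25 and in 35 and 19 cells. Rbm5 averaged 314 and 53 CPM (-2.36) and reached 100 CPM in 38 marked and 8 unmarked cells. Auts2, a transcriptional regulator, was detected in 46 marked and 20 unmarked cells and averaged 253 and 46.9 CPM (-2.21).

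The 15 genes chosen in the same way for the unmarked set were Itih5, Ctso, Cd36, Fabp4, Spp1, Gpm6b, Slfn5, Cyp1b1, C1qtnf4, Uba3, Pnpla8, Spsb1, Spred1, Iigp1 and Syde2. The fatty acid transporter Cd36 (Entrez 12491, chr5:17781690-17888959) was detected in 9 marked cells (11.1%, interval 5.21 to 20.1%) and 30 unmarked cells (51.7%, interval 38.2 to 65.1%). It ranged from 0 through a median of 0 to 8329 CPM in marked cells and from 0 through 12.5 to 46847 CPM in unmarked cells. The mean was 112 CPM in marked and 1306 CPM in unmarked cells, a log2 ratio of 3.43. One cell in each set carried most of it, marked cell 100 with 91.7% of its sum and unmarked cell 169 with 61.9%, and the ratio without cell 169 was 2.08.

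The fatty acid carrier Fabp4 (Entrez 11770, chr3:10204342-10208616) was largely found in the same unmarked cells. It was detected in 8 marked cells (9.88%, interval 4.36 to 18.5%) and 29 unmarked cells (50.0%, interval 36.6 to 63.4%) and averaged 108 and 1152 CPM (ratio 3.29). Of 32 unmarked cells with either gene, 27 had both, whereas of 14 marked cells with either, 3 had both. Part of these unmarked cells held under 100 CPM, since 15 unmarked cells reached 100 CPM of Cd36 and 10 reached 100 CPM of Fabp4. Both genes were highest in unmarked cells 113 to 175, with means of 1984 CPM for Cd36 and 1712 CPM for Fabp4, against 17.1 and 87.4 CPM in cells 176 to 237. With only cells that expressed at least 6 core basal genes, the means were 2.85 and 198 CPM for Cd36 and 11.0 and 415 CPM for Fabp4. The difference in detection was present in both runs of unmarked numbers, at 46.8 and 28.9 percentage points for Cd36. The difference in means was not: with unmarked cells 176 to 237 alone the Cd36 ratio was -2.17, and with cells of at least 100000 reads and 1500 genes it was -0.21.

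Both genes are abundant in adipocytes and capillary endothelium. A list of 12 adipocyte genes, Cd36 and Fabp4 among them, was added after these values had been seen. Of its members, 6 had no read in marked cells and 4 had none in unmarked cells. At least 3 of the list reached 100 CPM in marked cell 104 and unmarked cells 120 and 155. The summed level of the list, Cd36 and Fabp4 included, ranged from 0 to 15414 CPM in marked and from 0 to 70898 CPM in unmarked cells. The part of other cell types in the Cd36 and Fabp4 levels was not tested.

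Cyp1b1, a cytochrome P450 that oxidises oestrogens, showed no such dependence on title number. It averaged 12.8 CPM in marked and 163 CPM in unmarked cells (ratio 2.92, and 2.64 without the highest cell), with 178 and 133 CPM in unmarked cells 113 to 175 and 176 to 237. Spsb1, an adaptor of ubiquitin ligases, averaged 20.9 and 166 CPM (2.50), with 179 and 141 CPM in the 2 runs of unmarked numbers. Uba3, part of the enzyme that activates the ubiquitin-like protein NEDD8, averaged 21.9 and 188 CPM (2.64). For these 3 genes both unmarked runs lay above both marked runs.

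C1qtnf4, a secreted protein of the C1q and TNF-related family, averaged 0.549 CPM in marked and 58.1 CPM in unmarked cells (2.69) and was detected in 4 and 19 cells. Gpm6b, a membrane proteolipid, was detected in 11 and 24 cells and averaged 11.7 and 180.4 CPM (3.13). Itih5, a heavy chain of the inter-alpha-trypsin inhibitor family, had the largest named ratio (4.87), but 84.2% of its unmarked sum was in cell 120 and the ratio without that cell was 2.33. Over the 30 genes named by mean, 24 had both unmarked runs of title numbers beyond both marked runs, 15 of 15 among those higher in marked cells and 9 of 15 among those higher in unmarked cells. The genes had been chosen for the difference itself.

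**Figure D3:**
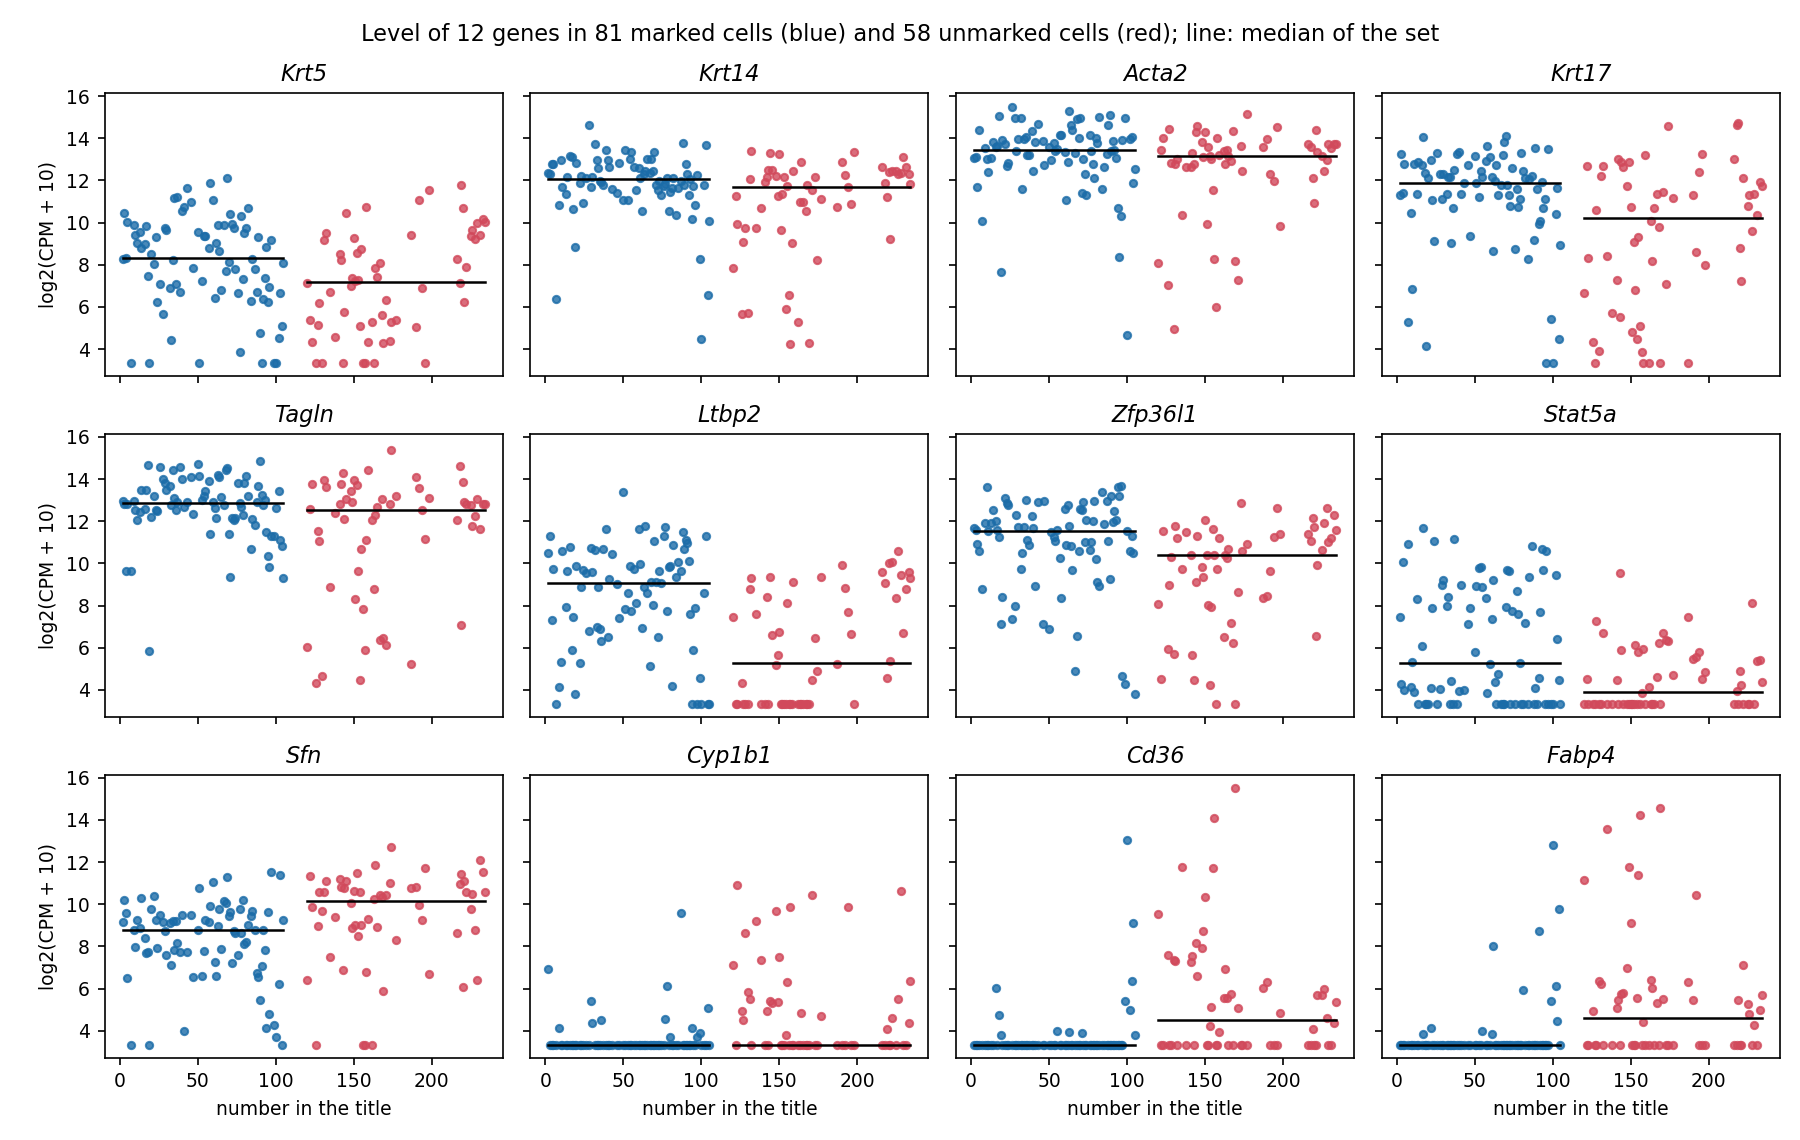
Log2(CPM + 10) in each of 81 marked cells (blue) and 58 unmarked cells (red) against the number in the title for 12 genes, with a line at the median of each set. Stat5a reached 100 CPM in 36 marked and 4 unmarked cells and Cd36 in 2 and 15, and Krt17 and Tagln lie scattered lower in a fraction of unmarked cells.

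Markers of other cell types were measured beside these genes. Of 8 fibroblast genes, 5 reached the level for comparison and all 5 were at least 2-fold higher in unmarked cells, with a median ratio of 2.98. Col1a2, Col3a1, Lum and Dpt reached that level, 50 CPM, in unmarked cells only. At their low marked means, a ratio past 2-fold was thus fixed by the selection, and only Dcn reached the level in both sets. With cells averaged as log2(CPM + 10), 1 of the 5 was 2-fold higher in unmarked cells, against 29 of all 4578 genes, with a median of 0.50. In unmarked cells 176 to 237 alone, 1 fibroblast gene reached the level for comparison, Dcn, and its ratio was -0.52. Decorin (Dcn), a collagen-binding proteoglycan, averaged 107 CPM in marked and 677 CPM in unmarked cells and was detected in 21 and 30 cells. The collagen chains Col1a2 and Col3a1 averaged 0.387 and 3.53 CPM in marked and 133 and 122 CPM in unmarked cells. Lum and Dpt had no read in marked cells, and with both set at the bound that 3 reads allow, the median was 3.79. At least 3 fibroblast genes reached 100 CPM in 0 of 81 marked cells (a share of at most 3.70% at this number of cells) and in unmarked cells 151, 155 and 157. The summed level ranged from 0 to 3267 CPM in marked and from 0 to 38206 CPM in unmarked cells.

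Endothelial markers were close to 0 in marked cells, where the summed list ranged from 0 to 59.8 CPM. In unmarked cells it ranged from 0 to 7917 CPM. Pecam1, the gene of CD31, averaged 0.661 and 95.4 CPM, with 92.9% of the unmarked sum in cell 135, and Egfl7 averaged 0.118 and 102 CPM, with 95.6% in cell 169. Immune genes went the other way through marked cell 19, which held between 95.3% and 99.2% of the summed marked CPM of H2-Aa, Cd74 and Tyrobp. Their summed level ranged from 0 to 96759 CPM in marked and from 0 to 255 CPM in unmarked cells.

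Genes of the luminal layer differed by list. At least 3 pan-luminal genes, such as the keratins Krt8 and Krt18, reached 100 CPM in 17 marked cells (21.0%) and 8 unmarked cells (13.8%), and none of the 4 compared was 2-fold apart (median 0.09). Of 4 luminal progenitor genes, Wfdc18 was higher in unmarked cells (2.42) and Cd14 in marked cells (-3.75), the latter through marked cell 19. The 3 compared genes of the mixed-lineage list were higher in unmarked cells. Each reached 50 CPM in that set only, so the direction was fixed by the selection. The growth factor Areg averaged 2.37 and 68 CPM, the prolactin receptor Prlr 4.47 and 263 CPM and the milk casein Csn3 13.6 and 68.9 CPM, and 64.4% to 79.8% of each unmarked sum was in 1 cell. At least 3 of the mixed-lineage luminal genes reached 100 CPM in unmarked cells 120, 135, 150 and 155. The mitochondrial shares of these cells were 79.5%, 43.8%, 53.0% and 35.0%. With only cells under 25% mitochondrial reads, 0 genes of the mixed-lineage list reached the level for comparison. Mki67, a gene of dividing cells, averaged 19.1 and 111 CPM, with 73.5% of the unmarked sum in cell 162, and Top2a averaged 49.5 and 78.9 CPM. The part of the cells named here in the differences between the sets was not tested. Comparisons were only repeated with cells of at least 6 core basal genes or under 25% mitochondrial reads.

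Detection was compared for the same 4578 genes after each cell had been thinned to 50000 reads. It was at least 25 percentage points higher in unmarked cells for 23 genes (0.502%) and in marked cells for 23 genes (0.502%). The median gene was detected in 33.3% of marked and 32.8% of unmarked cells. The largest differences toward unmarked cells were those of Cd36 and Fabp4, followed by the potassium channel Kcnk1 with 11 and 27 cells, the fibrillar collagen gene Col11a1 with 17 and 30 cells (a difference that was -10.99 points with unmarked cells 176 to 237 alone), and the zinc finger gene Zfp948 with 14 and 29 cells. Toward marked cells they were Snrpa1, a protein of the U2 spliceosomal particle, with 45 and 13 cells, the FERM-domain gene Frmd6 with 53 and 19 cells, Ltbp2, the nucleoside diphosphate kinase Nme1 with 61 and 26 cells, and Itprid1 with 44 and 14 cells. A mean difference of at least 2-fold accompanied the detection difference in 16 of the 23 genes higher in unmarked and 12 of the 23 higher in marked cells.

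The spread among cells was given as the SD of log2(CPM + 10) over the thinned cells and compared for the 2688 genes that averaged 50 CPM or more in both sets. It was larger by at least 0.5 in unmarked cells for 105 genes (3.91%) and in marked cells for 135 genes (5.02%). The medians were 2.18 in marked and 2.15 in unmarked cells. Tagln, the smooth muscle protein transgelin, had an SD of 1.52 in marked and 2.92 in unmarked cells, and its middle cells lay between 4573 and 12981 CPM in the marked set and between 996 and 9209 CPM in the unmarked set. Krt17, a keratin of basal and myoepithelial cells, had SDs of 2.40 and 3.51, with quartiles of 1666 and 6896 CPM against 108 and 4252 CPM. Its mean was 4591 and 3486 CPM, and its median 3699.8 and 1184 CPM. Both genes were high in most marked cells and low in a fraction of unmarked cells.

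Wider spread in unmarked cells was also seen for podoplanin (Pdpn), a surface glycoprotein (SD 1.75 and 2.79), the dynein light chain Dynll1 (1.19 and 2.23) and the immediate early factor Egr1 (2.20 and 3.07). With unmarked cells 176 to 237 alone, the Egr1 difference was -0.39. Wider spread in marked cells was seen for the pseudokinase Nrbp1 (2.13 and 1.34), the actin and phosphatase regulator Phactr2 (2.49 and 1.78), the endosomal gene Mon2 (2.28 and 1.59), the lysosomal protease Ctsl (2.81 and 2.15) and the chaperone Hsph1 (2.49 and 1.87). Measured by the coefficient of variation instead, Nrbp1, Phactr2, Mon2 and Hsph1 varied more in unmarked cells, and with unmarked cells 176 to 237 alone the Phactr2 difference in SD was 0.032. The housekeeping gene Actb had SDs of 0.72 and 0.77.

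**Figure D4:**
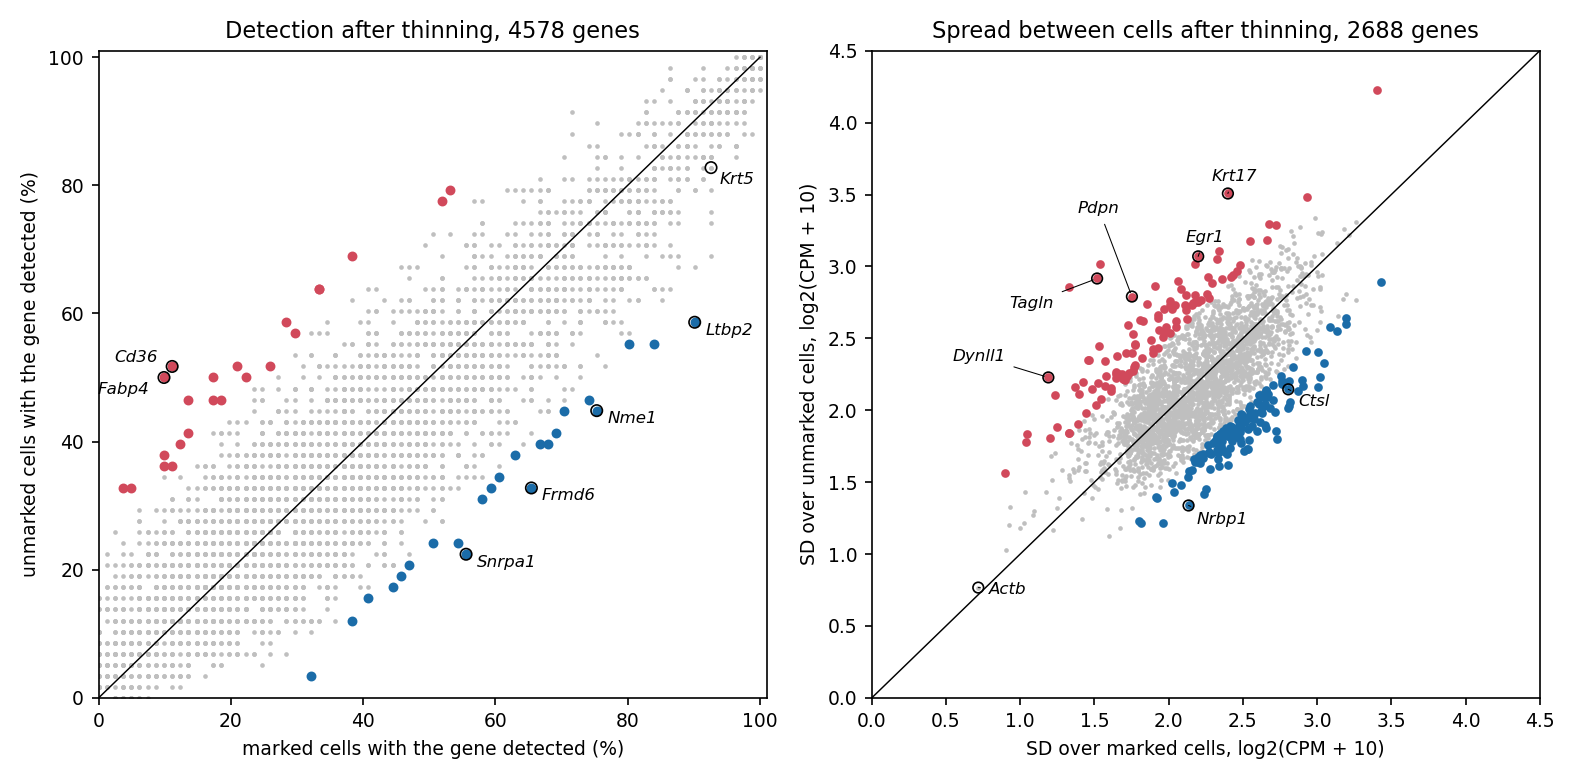
Left, percent of cells in which each of 4578 genes was detected at 50000 reads, and right, SD of log2(CPM + 10) at the same depth for 2688 genes, both with marked cells on the horizontal and unmarked cells on the vertical axis and a line of equal values. Red and blue points are the genes past the limits of 25 points and 0.5 (23 and 23 on the left, 105 and 135 on the right), with some of the named genes ringed.

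Genes of the extracellular matrix and of adhesion differed one by one rather than together. Of 19 matrix genes compared, 2 were higher in unmarked cells (Fn1 and Nid1) and 2 in marked cells (Ltbp2 and Lama5), shares below the 18.9% and 16.7% over all genes, and the median ratio was 0.07. The basement membrane linker nidogen 1 (Nid1) averaged 57.8 and 221 CPM (1.77), but 337 and 0.937 CPM in unmarked cells 113 to 175 and 176 to 237. Fibronectin (Fn1) averaged 2.9 and 142 CPM, with 97.6% of the unmarked sum in cell 151. Of 12 adhesion genes, 2 were higher in marked cells, the same share as over all genes (16.7%). They were the hemidesmosome genes Itgb4 (69.2 and 13.8 CPM, -1.74) and Plec (860.5 and 393 CPM, -1.11), and the median was -0.15. The sort antigen gene Itgb1, which encodes CD29, averaged 843 and 733 CPM.

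The medians of stress gene lists depended on how cells were averaged and, to differing degrees, on the run of title numbers. Among 13 immediate early genes, which respond within minutes to stimuli that include tissue dissociation, 1 was past the limit (Ier2, 50.7 and 459 CPM, with 88.2% of the unmarked sum in cell 174) and the median ratio was 0.03. Fos averaged 5019.9 and 3337 CPM (-0.59), Egr1 2859 and 1875 CPM, and the phosphatase gene Dusp1 425 and 216 CPM (-0.95). None of 13 chaperone genes and none of 12 translation genes was past the limit, with medians of -0.02 each. Over all genes compared, 18.9% were past it toward unmarked and 16.7% toward marked cells. With cells averaged as log2(CPM + 10), 4 of the 13 immediate early genes were higher in marked cells, with a median of -0.87. Of all 4578 genes, 113 were, with a median of -0.11. The other medians went from -0.02 to -0.38 for chaperones and from 0.14 to -0.35 for the p53 and growth arrest list. They went from -0.15 to -0.38 for antigen presentation and interferon genes and from -0.51 to -0.21 for inflammatory genes. With plain means, the immediate early median was -0.84 with unmarked cells 113 to 175 alone. With cells 176 to 237 alone it was 0.20. Over all genes these medians were 0.03 and -0.09. The same runs gave 0.03 and -0.34 for the p53 list and -0.18 and -0.81 for the antigen presentation list. They gave -0.31 and -0.38 for the inflammatory list and -0.22 and -0.04 for chaperones. Of 14 transcription factors, a share below the 18.9% of all genes was higher in unmarked cells, namely Id1, an inhibitor of bHLH factors (28 and 227 CPM, 2.64), and Srf, a regulator of actin genes (34.7 and 85 CPM, 1.09). Of 5 Wnt pathway genes, Tcf7l1 was (24.6 and 89.2 CPM, 1.52), and the cell cycle inhibitor Cdkn1a was higher in marked cells (600.4 and 283 CPM, -1.06).

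Among metabolic genes, 9 of the glycolysis and hypoxia list were compared, with a median ratio of 0.22. Of these, 1 was at least 2-fold higher in unmarked cells (Bnip3, 1.05) and 2 in marked cells, against 18.9% and 16.7% of all genes. The 2 were Slc2a1 (-1.74) and hexokinase 2 (Hk2), the first step of glycolysis, which averaged 210.2 and 90.7 CPM (-1.13). Of 12 nuclear genes of the respiratory chain, 1 was past the limit, the cytochrome oxidase subunit Cox5a (44.3 and 157 CPM, 1.62), and their median was 0.31. Another subunit of the same enzyme, Cox4i1, averaged 748 and 1203 CPM (0.68). The antimicrobial protease inhibitor Slpi averaged 8548 and 6259 CPM, its median was 5531 CPM in marked and 512 CPM in unmarked cells, and unmarked cells 113 to 175 and 176 to 237 averaged 1815 and 14703 CPM. Of its list of 7 secreted defence genes, with a median of 0.58, 2 were higher in unmarked cells, against 18.9% of all genes. They were the phospholipid-binding gene Anxa1 (616 and 1382 CPM) and Clu. Without the highest cell the Anxa1 ratio was 0.71, and its median was 124 CPM in marked and 78.6 CPM in unmarked cells. Clu lost the difference without cell 130. Of 7 inflammatory genes, the cytokine Il6 was higher in unmarked cells through cell 120 and the chemokine Cxcl2 in marked cells through cell 19, and each changed direction without that cell, with ratios of -1.32 and 1.40. Of 7 antigen presentation and interferon genes, the interferon-induced Ifit1 was higher in unmarked cells (0.0801 and 76.6 CPM) and the peptide transporter Tap1 in marked cells (84.6 and 20.1 CPM). This list and the inflammatory one each had 1 gene in each direction, against 18.9% and 16.7% of all genes. The median of the antigen presentation and interferon list was -0.15. With cells of at least 6 core basal genes it was -0.57, against 0.02 over all genes. With unmarked cells 176 to 237 alone these medians were -0.81 and -0.09. In both settings Ifit1 was no longer among the genes higher in unmarked cells.

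**Figure D5:**
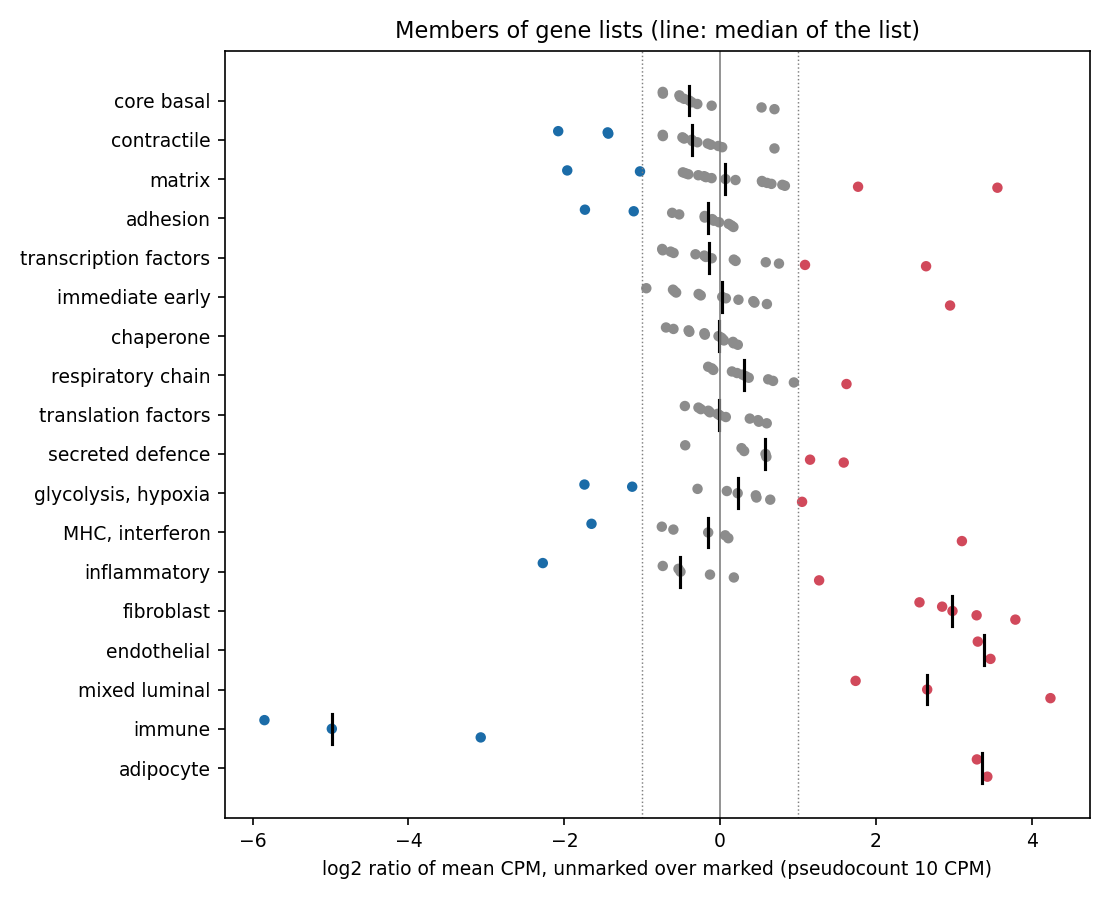
Log2 ratio of mean CPM, unmarked over marked with 10 CPM added, for the compared members of 18 gene lists, each point being a gene (red or blue when past the dotted 2-fold limits) and each short black line the median of its list. The core basal median lies at -0.40, the fibroblast median at 2.98, and the chaperone and translation medians at -0.02.

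Over the 500 leading genes, the median distance between 2 marked cells was 6.44 on the log2 scale (3240 pairs), between 2 unmarked cells 6.69 (1653 pairs) and between a marked and an unmarked cell 6.56 (4698 pairs). The distance between the sets thus lay between the distances within them. The pairs share cells and are not independent.

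The mitochondrial genes that had been left out were unequal in their difference. Of 15, 14 took a larger share of all reads in unmarked cells, with a median log2 ratio of 0.68. Cytochrome oxidase subunit 3 (COX3) had the largest, from 0.278% to 1.21% of all reads (2.13), and cytochrome b (CYTB) went from 3.19% in the marked set to 7.10% in the unmarked set (1.15). The NADH dehydrogenase subunit ND2 had a ratio of -0.06. Both mitochondrial ribosomal RNAs and ND1 lay between 0.07 and 0.12, although all of these genes are transcribed from the same circular genome.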

How the data were processed

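Gene counts per cell, as deposited by the authors, were made from 237 adult basal cells of the mouse mammary gland. According to the submitters' processing notes, the tools were Subread 1.5.0 and featureCounts and the build was mm10. Whether strand was used is not given in the sources used here, there were no molecular identifiers, and overlapping or near-identical genes may share reads. The table of the whole series holds the same counts and was not used. The cells compared, the gene lists and the measures were chosen with earlier results of these data known.

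Symbols and positions came from the RefSeq annotation of GRCm38.p6, which named 25275 of 27179 gene IDs. After 15 mitochondrial genes, 124 ribosomal protein genes and 1904 IDs without a symbol were left out, 25136 genes were used. CPM was a cell's count per 1000000 counts over these genes. Cells with at least 50000 counts and 1000 genes were kept. No doublet caller was run. Means were averaged over cells of a set, genes averaging 50 CPM or more in at least 1 set were compared, and a gene was called at a 2-fold difference of means after adding 10 CPM. Detection was a count of at least 1 after random thinning of each cell to 50000 reads (fixed seed), and was called at 25 percentage points. Spread was the SD of log2(CPM + 10) over the thinned cells, for genes averaging 50 CPM or more in both sets, and was called at 0.5. Intervals were exact Clopper-Pearson for shares and rank-based for medians, at 95%, and a count of 0 was given a limit of 3 counts. The labels name no animals, so each set was 1 sample and no test was made.

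Genes named by mean were called, had at least 50 CPM and 25% detection in the higher set and the same sign for the mean of log2(CPM + 10). Of these the 15 in each direction were taken with the largest value of the smaller of the ratio with all cells and that without the highest cell of the higher set. For detection, and for spread among genes with means less than 2-fold apart, the 5 with the largest difference in each direction were taken, and for level the 5 with the highest mean. List members were named besides. Alternatives covered pseudocount, filter, scaling, thinning depth, cell filter, highest cells and title numbers. The scripts were checked on simulated counts. Python 3.11.15, numpy 2.4.6, pandas 2.3.3, scipy 1.17.1 and matplotlib 3.10.9 were used, and the scaling factors of edgeR 4.0.16 and DESeq2 1.42.0 in R 4.3.3 were used only as alternatives to CPM.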

Additional observations from a re-analysis of the deposited data

Results flagged for a closer look

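Reads outside the comparison also carried signal. In the 31 marked cells that were left out for depth or gene number, the core basal genes took 3.08% of the pooled assigned reads. In the 67 unmarked cells left out they took 1.62%. In retained cells the share was 4.46% in marked and 3.44% in unmarked cells. Of all reads in retained cells, mitochondrial genes took 10.6% in marked and 19.5% in unmarked cells, ribosomal protein genes 1.47% and 1.56%, and gene IDs without a symbol 1.09% and 1.66%.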

How the results depend on the processing

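No paired analysis was possible because marked titles (1 to 112) and unmarked titles (113 to 237) share no numbers and the labels name no animals. The 28 lists include 2 with at least 3 compared genes and a median ratio of 1 or more and 1 with -1 or less. These are the fibroblast, mixed-lineage and immune lists. Apart from Dcn, their compared genes averaged 50 CPM or more in only 1 of the sets. Values below give genes higher in unmarked, then in marked cells. The cause of each change was not tested. At 100 CPM added, 181 and 72 genes were past 2-fold, the median size of the ratio was 0.36, 1 list was at 1 or more, and 44 and 26 genes differed in spread. With 1 CPM added the median size was 0.75, with summed reads 0.72 and with CPM over all reads 0.64 (Il6 -0.15). With means of log2 values, 29 and 113 genes were called (median size 0.28), no list reached 1 or -1 (0 and 0), and Cd14 was 0.054 and Pdgfrb 0.051. Without each set's highest cell, 255 genes were higher in unmarked cells (median size 0.56), Il6 was -0.27 and 231 genes had a larger spread in marked cells. A mean of at least 10 CPM gave 1565 and 1723 genes (0.73), as did no filter (0.30).

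With cells of at least 100000 reads and 1500 genes (23.2% of unmarked cells kept), the median size was 0.88, Cd36 was -0.21, Il6 -1.68 and Zfp948 -1.61, 1 and 2 lists reached 1 and -1, detection differed in 43 and 92 genes, and 228 genes had a larger spread in unmarked cells. With cells of at least 6 core basal genes no list with at least 3 compared genes reached 1 or -1 (0 and 0). The fibroblast and mixed-lineage lists then had 2 compared genes each and did not count, with medians of 2.08 and 2.12. The immune list had 0 compared genes. In that setting Cd14 was 0.99, Clu -0.18, Cxcl2 1.70, Il6 -1.78, Pdgfrb 0.30, Tyrobp 0.036 and Zfp948 -1.15. Under 25% mitochondrial reads gave a median size of 0.72, Clu -0.11, Il6 -0.36, 1 and 2 lists, 13 and 47 genes by detection, and 161 by spread in unmarked cells. Detection gave 13 genes for unmarked cells when thinned to 20000 reads, 46 and 40 without thinning, and 2 and 37 at 100 CPM.

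Runs of title numbers were chosen after seeing the data, as was the adipocyte list. With unmarked cells 113 to 175 alone the median size was 0.86, detection differed in 78 and 81 genes and spread in 200 for unmarked cells. With unmarked cells 176 to 237 alone, 1161 genes were higher in marked cells (median size 0.92), 1 list reached 1, and detection differed in 109 and 58 and spread in 222 for unmarked cells. The ratio there was -0.31 for Areg, -2.17 for Cd36, -1.19 for Clu, -0.055 for Col1a2, -0.26 for Col3a1, -0.69 for Csn1s1, -0.52 for Dcn and for the fibroblast list's median, -0.28 for Fabp4, 0.11 for Frmd6, -3.14 for Il6, -0.90 for Mki67, -2.63 for Nid1, -1.46 for Pnpla8, -0.41 for Prlr, -0.63 for Wfdc18 and -1.58 for Zfp948. The detection difference was -10.99 points for Col11a1 and 4.88 for Ltbp2, and the spread difference -0.39 for Egr1 and 0.032 for Phactr2. With marked cells 1 to 56 alone the median size was 0.80, Pdgfrb was 0.78 and Tap1 0.55, detection differed in 46 and 88 genes and spread in 178 for unmarked cells. With marked cells 57 to 112 alone they were 0.77, Cd14 1.21, Cxcl2 1.75 and Tyrobp 0.046, and 0 lists reached -1. By the coefficient of variation 654 genes varied more in unmarked cells, and the differences were 1.01 for Hsph1, 0.87 for Mon2, 1.26 for Nrbp1 and 1.36 for Phactr2. Among genes with means within 1 on the log2 scale, spread differed in 53 and 45. Median distances within marked, within unmarked and between sets were 7.66, 8.12 and 7.90 over 100 leading genes and 4.68, 4.59 and 4.66 over 2000. The scaling factors of edgeR and DESeq2 moved no count of calls by over 1.5 times.

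Counting error limits genes near 50 CPM most, since a read is worth more CPM in a shallow cell. Single cells decided many means, and no set had a second sample.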
